A study of Mus musculus with 6 samples.

Results

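The genes described here are 44 genes of the Wnt pathway, listed by symbol as ligands, receptors, secreted antagonists, intracellular mediators and targets. They were found by their Ensembl identifiers among the 27263 genes with values, and all 44 were listed. Their transcript levels were compared between 3 libraries of mouse bone marrow stromal cells treated with rGCA at 50 nM for 3 days (GCA) and 3 libraries of the same cells given PBS, the buffer control. Both groups came from C57BL/6 mice. Marrow of the tibia and femur was sorted for Sca-1+ CD29+ CD45− CD11b− cells, which were then cultured in α-MEM with 10% serum. The labels do not spell out GCA, and knowledge of the study gives it as grancalcin, which binds calcium and is made by myeloid cells, with rGCA as the recombinant protein. Whether the 3 replicates of a group were separate mice or cultures is not in the labels, and p-values therefore cover the spread between these libraries alone, part of which may be technical. Values are FPKM, that is fragments scaled to exon length and to the total of the library. The totals, 17543509 to 18645932 fragments, were inferred from the values themselves. With them, 1 fragment in a gene of 2 kb was worth 0.0268 to 0.0285 FPKM.

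The genes of the sort gate and of stroma were detected, and so were those of macrophages. Ly6a, which encodes Sca-1, averaged 324 FPKM with GCA and 284 FPKM with PBS, and Itgb1, which encodes CD29, 313 FPKM and 348 FPKM. Ptprc, which encodes CD45, averaged 13.4 FPKM with GCA and 12.6 FPKM with PBS, and Itgam, which encodes CD11b, 30.5 FPKM and 39.3 FPKM, although both were sorted against. The summed level of 20 macrophage markers was 18019 to 19107 FPKM in the GCA libraries and 20332 to 22625 FPKM in the PBS libraries, and Lyz2, the macrophage lysozyme, held the largest part of it in each group. Without Lyz2, left out after the values were seen, the direction turned: the other 19 summed to 9417 to 9974 FPKM with GCA and 7707 to 8578 FPKM with PBS. The levels given here are those of the whole culture.

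Wnt proteins are secreted lipid-modified ligands that bind frizzled receptors. With the co-receptors Lrp5 and Lrp6 they keep β-catenin from being degraded, and β-catenin then acts with TCF and LEF factors on target genes. Other ligands, of which Wnt5a is the best known, act largely without β-catenin through receptors such as Ror2 and Ryk. In marrow stroma, Wnt signalling through β-catenin is known to favour bone formation over fat, and secreted proteins of the Sfrp, Dkk and Wif families limit it.

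GCA-treated cells held less transcript of 4 of these genes and more of none at the threshold used. Ccn4, a matrix protein and Wnt target, stood at 0.601 of its PBS level, the feedback inhibitor Apcdd1 at 0.690, the ligand Wnt5a at 0.717 and the receptor Ryk at 0.860. The other 22 tested genes, among them 7 frizzleds, Lrp5, Lrp6 and the β-catenin gene Ctnnb1, did not pass. Of the 44 genes, 26 averaged at least 1 FPKM across the 6 libraries and entered the test, which was limma on log2(FPKM + 1) over 11984 genes with Benjamini-Hochberg adjusted p under 0.05. The 4 lower genes are 15.4% of the 26, near the 17.9% of all tested genes past the threshold in either direction. By direction, 15.4% were lower, against 6.43% of all tested genes, and 0 were higher, against 11.5%. The difference from those shares was not tested. The 44 genes were chosen with earlier results of these data known, so the shares only describe them. Over all genes 1380 were higher and 771 lower, and 1198 and 1027 after quantile normalization. None of the 26 genes was higher at an adjusted p under 0.05 by limma, and 2 of them were higher at an unadjusted p under 0.05 (Lrp6 and Sfrp2). Among those it could test, limma-voom on whole fragments called 1 higher (Lrp6, adjusted p = 0.0289). The log2 fold changes of the 26 genes ran from −0.70 to 0.18 with a median of −0.06, against 0.01 for all genes tested, and the median size was 0.11 in both. In bulk RNA, fewer cells of a type and less RNA per cell cannot be told apart.

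**Figure D1:**
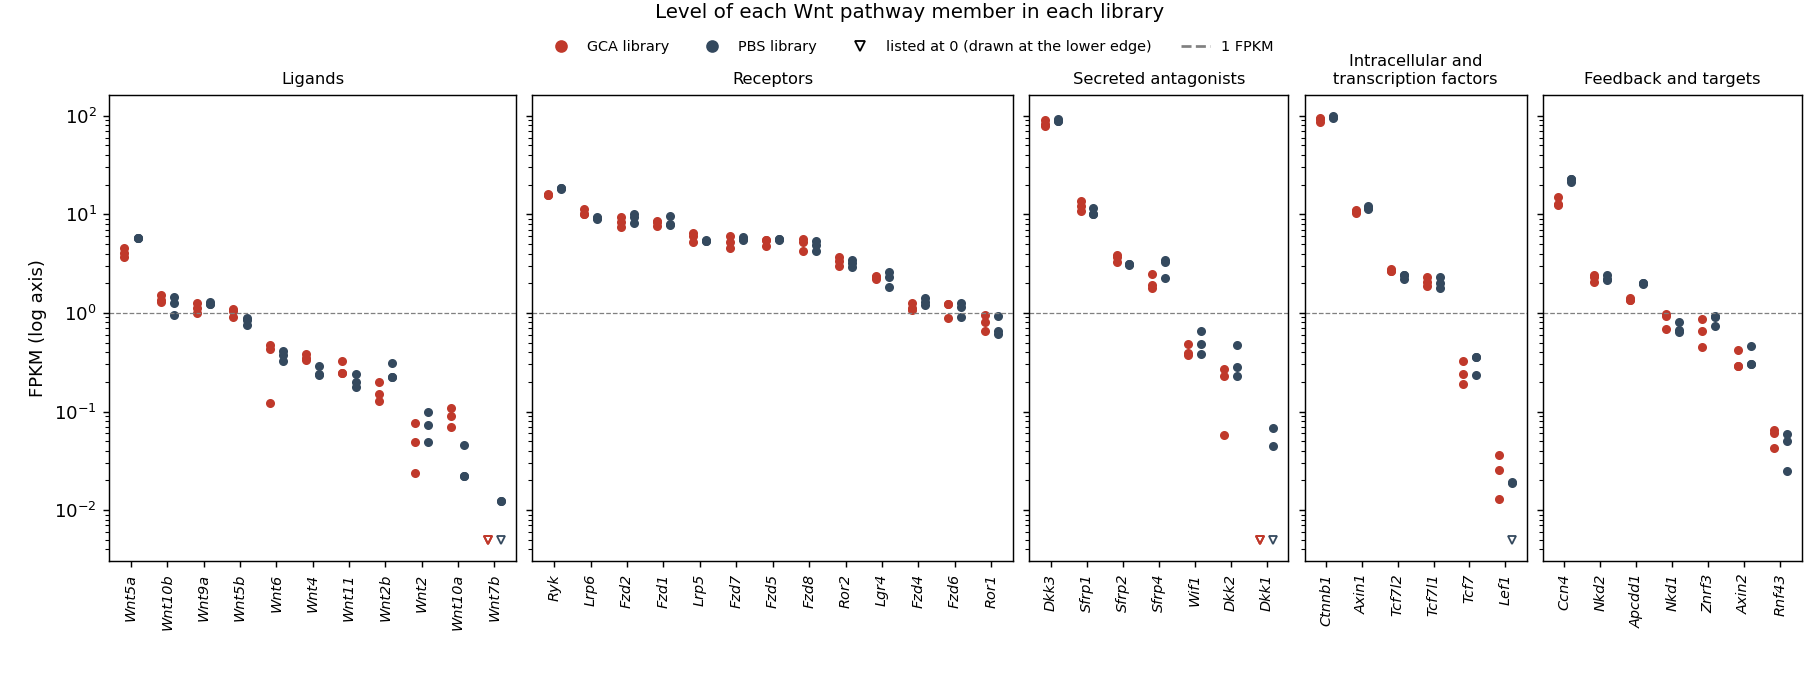
FPKM of the 44 genes in each library on a log axis, grouped by role and ordered by mean within a role, with GCA libraries in red at the left of each pair and PBS libraries in dark blue at the right. Ctnnb1 and Dkk3 lie near 100 FPKM, 18 genes have means under the dashed line at 1 FPKM, and open triangles mark libraries in which a gene was listed at 0.

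The genes spanned a wide range of levels that both groups shared. Ctnnb1 and Dkk3 together held 55.5% to 57.5% of the summed FPKM of the 44 genes in every library. A further 10 genes had a mean of at least 5 FPKM, which made 12 in all, 6 had a mean under 0.1 FPKM and 3 were listed at 0 in at least 1 library. The summed level of all 44 was 300.1, 300.7 and 325.2 FPKM in GCA replicates 1 to 3, against 344.0, 333.6 and 329.5 FPKM in PBS replicates 1 to 3, and the groups did not overlap.

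Among the ligands, Wnt5a was the most abundant in every library and the only one of 3 tested to pass the threshold. Wnt5a (chromosome 14, 28504750 to 28527448, plus strand, GRCm38) had 4.02, 3.68 and 4.60 FPKM in the GCA libraries, against 5.69, 5.75 and 5.70 FPKM in the PBS libraries. Every GCA library lay under every PBS library, and the GCA libraries were spread more widely, with 4.10 ± 0.466 FPKM against 5.71 ± 0.0343 FPKM (SD, n = 3 each). Those values rest on 561, 505 and 671 fragments with GCA and on 811, 817 and 795 with PBS. The log2 fold change was −0.40 (SE 0.0732, 95% interval −0.57 to −0.23, limma adjusted p = 0.00879). Wnt5a made up 45.5%, 42.4% and 49.9% of the summed FPKM of the 11 ligands in the GCA libraries, against 55.9%, 55.5% and 56.6% in the PBS libraries. Of its exonic bases 4.6% are shared with the antisense gene Gm2670, which averaged 0.0397 FPKM with GCA and 0.151 FPKM with PBS, and the sources used here do not give whether counting used strand.

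Wnt10b and Wnt9a, ligands known to act through β-catenin, were the next ligands by level. Wnt10b averaged 1.40 ± 0.125 FPKM with GCA and 1.22 ± 0.242 FPKM with PBS, with a log2 fold change of 0.11 (95% interval −0.12 to 0.34, limma adjusted p = 0.482). Wnt9a averaged 1.13 ± 0.129 FPKM with GCA and 1.25 ± 0.031 FPKM with PBS (log2 fold change −0.08, 95% interval −0.26 to 0.11, limma adjusted p = 0.561). The values of both overlapped between GCA and PBS, and the 2 genes could not be ordered by level beyond their spread.

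The other 8 ligands averaged less than 1 FPKM. Wnt5b, the close relative of Wnt5a, was nearest the filter, with 0.907, 1.05 and 1.09 FPKM in the GCA libraries, against 0.889, 0.747 and 0.845 FPKM in the PBS libraries. Its GCA values lay above its PBS values, but they rest on 43, 49 and 54 fragments, against 43, 36 and 40. GCA replicate 1 and PBS replicate 1 had the same count, and with no filter the limma adjusted p was 0.419. Wnt4 likewise lay higher in each GCA library, with means of 0.353 and 0.255 FPKM from 80 and 58 fragments, and Wnt2b lower, with 0.159 and 0.251 FPKM from 36 and 57 fragments. Wnt6 averaged 0.342 FPKM with GCA and 0.371 FPKM with PBS. Wnt11 averaged 0.272 FPKM and 0.205 FPKM, from 18, 18 and 25 fragments with GCA and 15, 18 and 13 with PBS. Each of its GCA values lay above each PBS value, although GCA replicates 1 and 2 had the same count as PBS replicate 2. How often genes under 1 FPKM do not overlap between the groups was not computed. Wnt10a had 4, 3 and 5 fragments in the GCA libraries and 1, 1 and 2 in the PBS libraries, and Wnt2 had 6 fragments in all with GCA and 9 with PBS, counts too small to carry a fold. Wnt7b was listed at 0 in all 3 GCA libraries and at 0.0124, 0.0125 and 0 FPKM in the PBS libraries.

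Among the receptors, Ryk was lower with GCA and the other 11 tested did not pass. Ryk, a receptor of the tyrosine kinase type that binds Wnt5a and other ligands, was the most abundant of the receptors. Ryk (chromosome 9, 102834917 to 102908305, plus strand, GRCm38) had 15.5, 15.7 and 16.2 FPKM in the GCA libraries, against 18.45, 18.67 and 18.05 FPKM in the PBS libraries. The groups did not overlap, and the spread within each was small, at 15.8 ± 0.336 FPKM with GCA and 18.4 ± 0.315 FPKM with PBS. These are 1257, 1251 and 1368 fragments with GCA and 1525, 1537 and 1459 with PBS. The log2 fold change was −0.21 (SE 0.0442, 95% interval −0.31 to −0.10, limma adjusted p = 0.0163). The adjusted p was 0.0602 without GCA replicate 1 and 0.0596 without PBS replicate 2, with a fold change of −0.22 to −0.19 whichever library was left out.

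The promoter of Ryk is shown because, of the 4 lower genes, only Ryk has an entry in the promoter table used here. That of Frzb, a lower gene of the same pathway described further on, is set beside it as an example. Ptk7 and Tgif1, also lower, have entries too, so Frzb does not stand for the lower genes. The windows of Ryk and Frzb run from 250 bases before the start of the transcript to 50 after it, 5′ to 3′ on the strand of the gene (RefSeq, GRCm38.p6). Capitals mark a match to CTTTGA or its reverse complement TCAAAG, the core letters of sites that TCF and LEF factors bind. Ryk lies at chr9:102834670-102834969 (plus strand) and Frzb at chr2:80447347-80447646 (minus strand).
Ryk: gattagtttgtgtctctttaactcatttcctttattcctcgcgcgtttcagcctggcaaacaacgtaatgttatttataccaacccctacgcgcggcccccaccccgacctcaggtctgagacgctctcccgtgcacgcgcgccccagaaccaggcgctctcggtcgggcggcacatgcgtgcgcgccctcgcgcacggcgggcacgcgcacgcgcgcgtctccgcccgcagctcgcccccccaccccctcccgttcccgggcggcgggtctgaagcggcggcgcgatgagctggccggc
Frzb: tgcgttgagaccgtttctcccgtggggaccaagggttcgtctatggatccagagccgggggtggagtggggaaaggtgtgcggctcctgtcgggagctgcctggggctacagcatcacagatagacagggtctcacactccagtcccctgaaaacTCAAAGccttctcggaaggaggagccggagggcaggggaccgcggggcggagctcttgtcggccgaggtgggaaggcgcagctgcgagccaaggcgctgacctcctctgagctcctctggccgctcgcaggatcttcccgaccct
The Ryk window held 42 CpG and 67.7% G and C with no match, and the Frzb window 20 CpG and 64.7% with 1 match, where the median over all promoters in the table was 7 CpG. The core was found in 5257 of 32851 promoters (16%) and in 6 of the 39 promoters of the 29 Wnt genes with an entry, those of Dkk1, Fzd1, Lef1, Ror1, Wnt11 and Wnt5b. The longer CTTTGATC, which contains the core, was in 308 promoters (0.938%), those of Wnt11 and Wnt5b among them. Frzb was 1 of several further pathway genes past the threshold with an entry. The windows of Ptk7, Ascl2, Tle3 and Id2 held 0 matches, and those of Tgif1 held 0, 1 or 2. A match is a description of the letters in such a window.

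The frizzled genes, which encode the receptors that Wnt ligands bind, were detected at similar summed levels in both groups. The 7 together had 31.8, 33.8 and 37.4 FPKM in the GCA libraries, against 39.1, 33.7 and 35.8 FPKM in the PBS libraries. PBS replicate 1 was the highest and GCA replicate 1 the lowest, and the groups overlapped. Fzd2 had 7.46, 8.26 and 9.39 FPKM with GCA, against 10.2, 8.09 and 9.42 FPKM with PBS (log2 fold change −0.13, 95% interval −0.35 to 0.10). Fzd1 had 7.67, 8.28 and 8.46 FPKM with GCA, against 9.59, 7.95 and 7.82 FPKM with PBS (−0.04, −0.23 to 0.14). For both, the highest value was that of PBS replicate 1 and the lowest that of GCA replicate 1. Fzd7 had 4.51, 5.27 and 6.05 FPKM with GCA, against 5.92, 5.52 and 5.68 FPKM with PBS (−0.10, −0.31 to 0.10). Fzd5 had 5.43, 4.77 and 5.53 FPKM with GCA, against 5.67, 5.65 and 5.43 FPKM with PBS (−0.08, −0.23 to 0.07). Both overlapped between groups, and 17.8% of the exonic bases of Fzd5 are shared with a gene on the opposite strand, Gm38058, that averaged under 0.1 FPKM. Fzd8 averaged 5.02 FPKM with GCA and 4.82 FPKM with PBS (0.05, −0.19 to 0.29), Fzd4 averaged 1.15 and 1.30 FPKM (−0.10, −0.28 to 0.09), and Fzd6 averaged 1.11 FPKM in both (0.00, −0.24 to 0.25). The limma adjusted p-values of the 7 frizzleds ran from 0.414 (Fzd2) to 0.990 (Fzd6), and their intervals leave room for changes of up to 0.35 log2 units.

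The co-receptor Lrp6 lay higher in every GCA library without passing the threshold. Lrp6, which takes up the Wnt signal beside a frizzled, had 9.97, 10.1 and 11.4 FPKM with GCA, against 9.21, 8.87 and 9.40 FPKM with PBS. The groups did not overlap, and the log2 fold change was 0.17 (SE 0.0611, 95% interval 0.03 to 0.31, limma adjusted p = 0.0895). On whole fragments tested with limma-voom the adjusted p was 0.0289. Its relative Lrp5 had 5.26, 6.50 and 5.99 FPKM with GCA, against 5.31, 5.44 and 5.41 FPKM with PBS (log2 fold change 0.11, 95% interval −0.06 to 0.28, limma adjusted p = 0.330). GCA replicate 1 was the lowest of the 6 for Lrp5, so the groups overlapped.

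The remaining receptors did not pass. Ror2, a receptor for Wnt5a, averaged 3.36 FPKM with GCA and 3.18 FPKM with PBS (log2 fold change 0.06, 95% interval −0.13 to 0.25, limma adjusted p = 0.665). Its relative Ror1 averaged 0.807 FPKM with GCA and 0.736 FPKM with PBS, from 252 and 230 fragments, and was not tested. Lgr4, which binds the R-spondins that heighten Wnt signalling, averaged 2.29 FPKM with GCA and 2.26 FPKM with PBS (0.02, −0.20 to 0.24, limma adjusted p = 0.924). The 4 genes Ryk, Ror2, Lrp6 and Lrp5 thus had fold changes of −0.21, 0.06, 0.17 and 0.11 in the same libraries, and differences between genes were not tested.

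**Figure D2:**
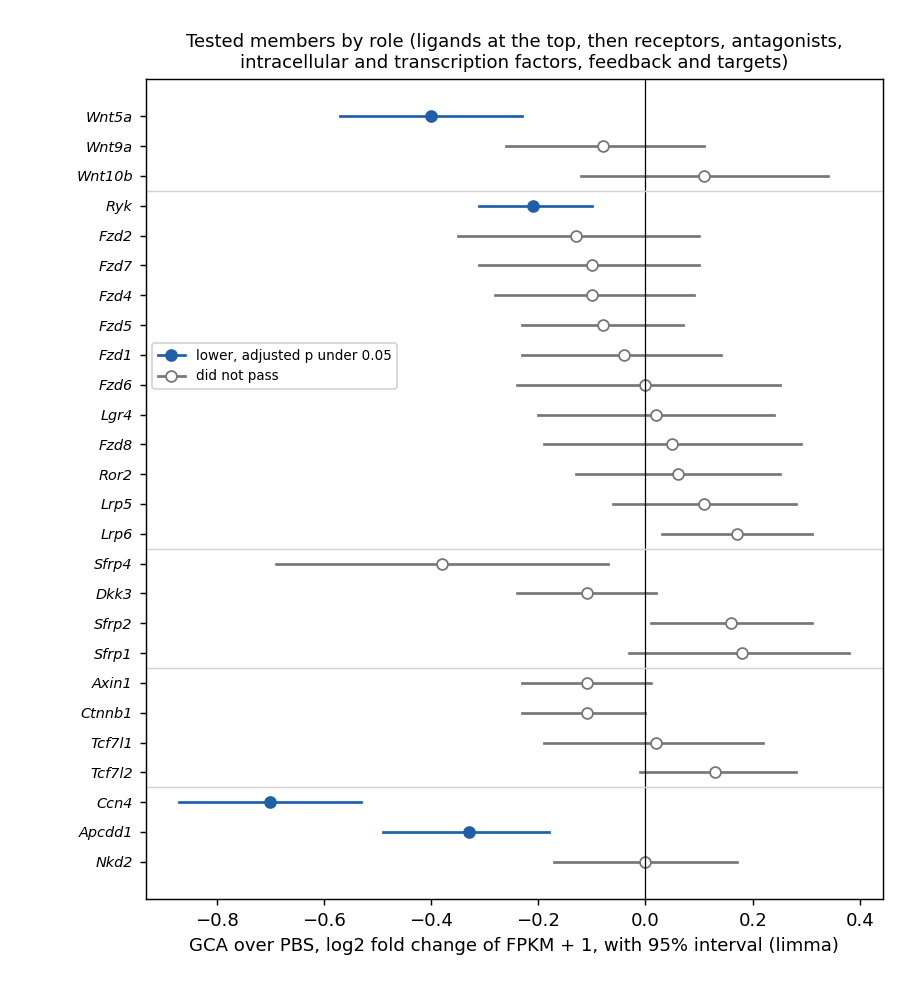
Log2 fold change of GCA over PBS on the log2(FPKM + 1) scale with its 95% interval from limma for the 26 tested genes, by role from ligands at the top to feedback genes and targets at the bottom. Filled blue points are the 4 genes past the threshold, all left of 0, and open points the 22 that did not pass, of which Sfrp4 reached −0.38 and Sfrp1 0.18.

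The secreted antagonists showed no change past the threshold, and their sum was nearly all Dkk3. Dkk3, a secreted relative of the Dickkopf inhibitors whose own action on Wnt signalling is less settled, had 78.8, 81.9 and 89.3 FPKM in the GCA libraries, against 92.9, 89.2 and 87.9 FPKM in the PBS libraries. GCA replicate 3 lay among the PBS values, and the log2 fold change was −0.11 (95% interval −0.24 to 0.02, limma adjusted p = 0.215). Dkk3 held 81.7% to 83.8% of the summed FPKM of the 7 antagonists in each library. Of the 4 tested antagonists, limma called 0 at an adjusted p under 0.05, as did limma-voom, and limma found 2 at an unadjusted p under 0.05, Sfrp2 higher and Sfrp4 lower.

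The 3 secreted frizzled-related genes, whose proteins bind Wnt ligands outside the cell, pointed in different directions. Sfrp1 had 10.7, 12.1 and 13.6 FPKM with GCA, against 11.6, 10.1 and 10.1 FPKM with PBS, and GCA replicate 1 lay among the PBS values (log2 fold change 0.18, 95% interval −0.03 to 0.38, limma adjusted p = 0.212). Sfrp2 had 3.82, 3.68 and 3.31 FPKM with GCA, against 3.08, 3.15 and 3.10 FPKM with PBS, without overlap (0.16, 0.01 to 0.31, limma adjusted p = 0.123). Sfrp4 had 1.80, 1.92 and 2.48 FPKM with GCA, against 2.27, 3.28 and 3.46 FPKM with PBS. PBS replicate 1 lay within the range of the GCA libraries, and the log2 fold change was −0.38 (95% interval −0.69 to −0.07, limma adjusted p = 0.0927). Without PBS replicate 1 it was −0.52, with an adjusted p of 0.0308.

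The secreted inhibitors Dkk1, Dkk2 and Wif1 were scarce in both groups. Dkk1, which blocks Lrp5 and Lrp6, had 0 fragments in each GCA library, against 2, 3 and 0 fragments in the PBS libraries. A count of 0 allows up to 3 fragments, or 0.0663 to 0.0705 FPKM in the GCA libraries, so no difference was detectable at this depth. Dkk2 averaged 0.187 FPKM with GCA and 0.328 FPKM with PBS, from 37 and 66 fragments, with GCA replicate 3 apart at 0.0579 FPKM. Wif1, which binds Wnt ligands, averaged 0.418 FPKM with GCA and 0.509 FPKM with PBS.

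Ctnnb1, the gene of β-catenin, was the most abundant gene of the set in every library and did not pass the test. Ctnnb1 (chromosome 9, 120929216 to 120960507, plus strand, GRCm38) had 93.9, 85.4 and 91.8 FPKM in the GCA libraries, against 97.9, 99.6 and 95.7 FPKM in the PBS libraries. The groups did not overlap, and the log2 fold change of −0.11 had a 95% interval of −0.23 to 0.00 (limma adjusted p = 0.160). Axin1, a scaffold of the complex that marks β-catenin for degradation, had 10.2, 11.03 and 10.9 FPKM with GCA, against 12.1, 11.3 and 11.6 FPKM with PBS (−0.11, −0.23 to 0.01, limma adjusted p = 0.177). It too lay lower in each GCA library than in any PBS library. Of the exonic bases of Ctnnb1, 14.6% are shared with Ulk4 on the opposite strand, which averaged 0.227 FPKM with GCA and 0.208 FPKM with PBS.

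Of the transcription factors that pair with β-catenin, Tcf7l2 and Tcf7l1 were the ones above the filter. Tcf7l2 had 2.69, 2.64 and 2.77 FPKM with GCA, against 2.23, 2.45 and 2.45 FPKM with PBS, without overlap (log2 fold change 0.13, 95% interval −0.01 to 0.28, limma adjusted p = 0.187). Tcf7l1, known mainly as a repressor, averaged 2.08 FPKM with GCA and 2.04 FPKM with PBS (0.02, −0.19 to 0.22, limma adjusted p = 0.919). Tcf7 averaged 0.253 FPKM with GCA and 0.316 FPKM with PBS, and Lef1 had 12 fragments in all with GCA and 6 with PBS. At an adjusted p under 0.05, limma called 0 of the 4 tested intracellular and transcription factor genes, and limma-voom called 0 of the 3 it could test, which left out Tcf7l2. At an unadjusted p under 0.05 the count was 0 by limma and 1 by limma-voom, Ctnnb1, which was lower.

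**Figure D3:**
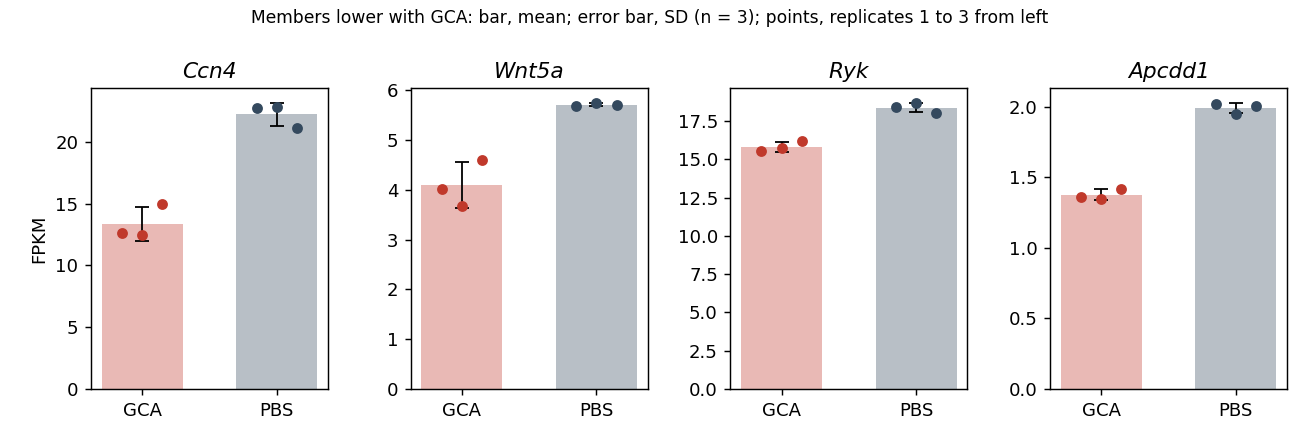
FPKM of Ccn4, Wnt5a, Ryk and Apcdd1 by group, GCA at the left and PBS at the right, each panel with its own axis from 0. Bars are means, error bars the SD of 3 libraries and points the libraries, and in each panel the 3 GCA points lie under the 3 PBS points.

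The largest difference among the 44 genes that passed the test was that of Ccn4, a secreted matrix protein of the CCN family, also named Wisp1 and known as a target of β-catenin signalling. Ccn4 (chromosome 15, 66891320 to 66923201, plus strand, GRCm38) had 12.6, 12.5 and 14.97 FPKM in the GCA libraries, against 22.7, 22.8 and 21.1 FPKM in the PBS libraries. The groups were far apart, at 13.4 ± 1.40 FPKM with GCA and 22.2 ± 0.942 FPKM with PBS. The log2 fold change was −0.70 (SE 0.0733, 95% interval −0.87 to −0.53, limma adjusted p = 0.000967). It was −0.78 to −0.66 whichever library was left out.

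Apcdd1, a membrane protein that inhibits Wnt signalling and is itself a target of it, was also lower with GCA. It had 1.36, 1.34 and 1.42 FPKM in the GCA libraries, against 2.02, 1.95 and 2.00 FPKM in the PBS libraries. Both groups were tight, at 1.37 ± 0.0388 FPKM with GCA and 1.99 ± 0.0373 FPKM with PBS. The log2 fold change was −0.33 (SE 0.068, 95% interval −0.49 to −0.18, limma adjusted p = 0.0134), which at this low level understates the ratio of 0.690. Without PBS replicate 3 the adjusted p was 0.0565.

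Of the other feedback genes, Nkd2 did not pass and 4 were too low to test. Axin2, the feedback gene most used as a readout of β-catenin signalling, had 0.417, 0.290 and 0.292 FPKM in the GCA libraries, against 0.458, 0.300 and 0.306 FPKM in the PBS libraries. In both groups replicate 1 was the highest, and the sums were 99 fragments with GCA and 106 with PBS. Nkd2, an intracellular inhibitor that binds Dishevelled proteins, averaged 2.26 FPKM in both groups (log2 fold change 0.00, 95% interval −0.17 to 0.17, limma adjusted p = 0.995), and its relative Nkd1 averaged 0.863 FPKM with GCA and 0.708 FPKM with PBS. Znrf3 and Rnf43, ubiquitin ligases that remove frizzleds from the cell surface, were also low: Znrf3 averaged 0.660 FPKM with GCA and 0.856 FPKM with PBS, and Rnf43 0.0563 FPKM and 0.0451 FPKM. The fall of Ccn4 and Apcdd1 thus stood beside values of Axin2 and Nkd2 that overlapped between the groups.

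The 18 genes under 1 FPKM were also fitted together with every other gene, with no filter. Limma called 0 of the 18 at an adjusted p under 0.05, the lowest adjusted p being 0.214, and found 1 at an unadjusted p under 0.05, Wnt10a, which was higher. The pseudocount of 1 holds the fold changes of such genes near 0, so this says little about them.

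The libraries of a group did not vary alike across these genes. Of the 26 tested genes, 17 were highest among the GCA libraries in replicate 3 and 15 were lowest in replicate 1. Among the PBS libraries, replicate 1 was the highest for 12 genes. For the 12 tested receptors the counts were 9 for GCA replicate 3 as the highest, 8 for GCA replicate 1 as the lowest and 8 for PBS replicate 1 as the highest. The median difference from the PBS mean over the 26 genes was −0.08, −0.05 and 0.02 log2 units in GCA replicates 1 to 3, against 0.02, −0.01 and 0.00 in PBS replicates 1 to 3. Values of the 3 GCA and 3 PBS libraries did not overlap for 9 of the 26 genes, 3 higher and 6 lower, against 38.5% of all tested genes, 21.6% higher and 16.8% lower.

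**Figure D4:**
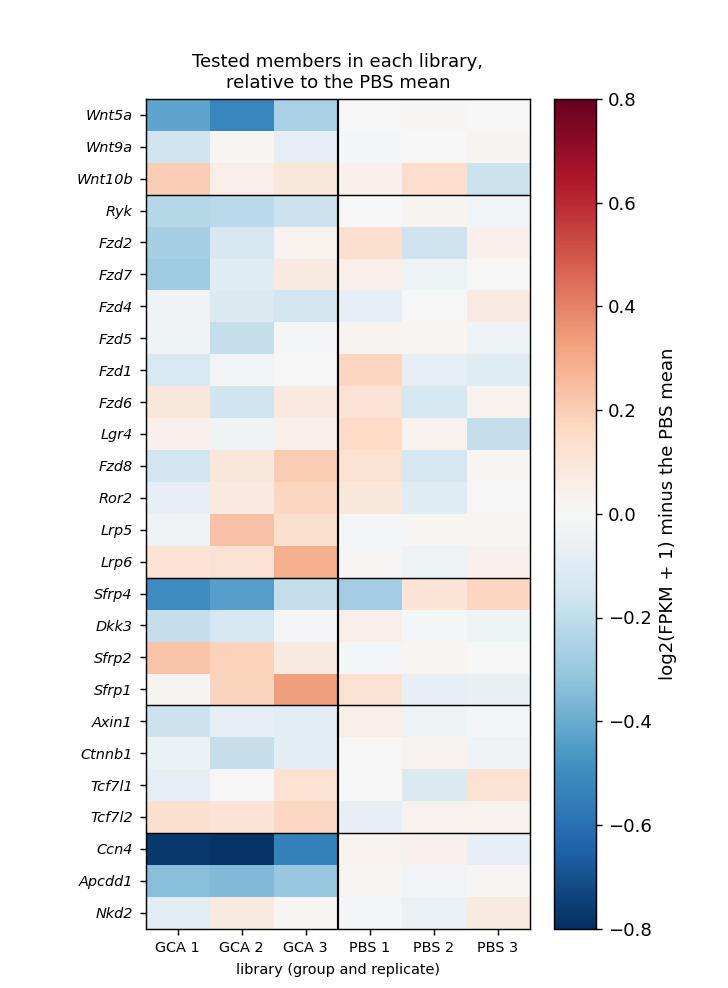
Level of each of the 26 tested genes in each library as log2(FPKM + 1) minus the mean of the PBS libraries, with the 3 GCA libraries left of the 3 PBS libraries and roles separated by lines. Blue is lower and red higher than the PBS mean, and Ccn4, Wnt5a, Apcdd1 and Ryk are blue in all 3 GCA libraries while Sfrp1 is darkest red in GCA replicate 3.

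Further genes of the pathway, from a list of 93 with 86 analysed here and 56 tested, showed 5 higher and 6 lower with GCA and 45 that did not pass. That is 19.6% of those tested, against 17.9% of all genes, with a median log2 fold change of −0.04. The list was chosen with earlier results of these data known, so its share only describes it. The count past the threshold was 7 without PBS replicate 3. Genes for making and releasing Wnt ligands included Porcn, the enzyme that attaches the lipid to Wnt proteins. Porcn had 9.02, 9.75 and 8.62 FPKM in the GCA libraries, against 6.05, 6.54 and 4.77 FPKM in the PBS libraries. The groups did not overlap, and Porcn rose 1.58-fold (log2 fold change 0.59, 95% interval 0.35 to 0.82, limma adjusted p = 0.00735). Wls, which carries ligands to the cell surface, averaged 40.1 FPKM with GCA and 41.1 FPKM with PBS (−0.03, −0.15 to 0.08, limma adjusted p = 0.673).

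The genes of this list past the threshold that act outside the cell or at its surface were Rspo3, Frzb, Gpc6, Ptk7 and Ccn5, each lower with GCA. Others of that kind did not pass, among them Rspo2, Gpc4 (log2 fold change −0.18, limma adjusted p = 0.0798), Cthrc1 (−0.05) and Kremen1 (0.00). Rspo3, an R-spondin, fell to 1.67 ± 0.114 FPKM with GCA, against 2.42 ± 0.149 FPKM with PBS (log2 fold change −0.35, limma adjusted p = 0.0137), while the more abundant R-spondin Rspo2 averaged 43.6 ± 1.68 FPKM and 41.1 ± 2.61 FPKM and did not pass (0.08, −0.05 to 0.22, limma adjusted p = 0.359). Frzb, a further secreted frizzled-related protein, averaged 0.906 ± 0.164 FPKM with GCA and 1.44 ± 0.125 FPKM with PBS (−0.36, limma adjusted p = 0.0343). The call of Frzb was lost when any library but GCA replicate 2 was left out, with adjusted p-values of up to 0.109, and that of Rspo3 was lost without PBS replicate 3 (adjusted p = 0.0581). Gpc6, a heparan sulphate proteoglycan of the cell surface, fell to 3.54 ± 0.181 FPKM with GCA, against 5.75 ± 0.269 FPKM with PBS (−0.57, limma adjusted p = 0.00102). Ptk7, a co-receptor of Wnt signalling in cell polarity, averaged 31.6 ± 1.47 FPKM with GCA and 37.1 ± 2.09 FPKM with PBS (−0.22, limma adjusted p = 0.0313). It did not pass when any library but GCA replicate 3 or PBS replicate 2 was left out, at up to 0.0932.

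Ccn5, also named Wisp2 and a relative of Ccn4, fell as well. Ccn5 had 98.7, 104 and 103 FPKM in the GCA libraries, against 147, 145 and 147 FPKM in the PBS libraries. The groups lay far apart relative to their spread, with a log2 fold change of −0.52 (95% interval −0.62 to −0.43, limma adjusted p = 0.000396) and a ratio of 0.695. Ccn4 and Ccn5 thus fell to 0.601 and 0.695 of their PBS levels.

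The other genes of this list past the threshold were Ascl2, Id2, Tle3 and Nfatc1, higher with GCA, and Tgif1, lower. Tle1, Tle2, Tle4, Tle5, Bcl9, Bcl9l, Pygo2, Jun, Fosl1 and Zbtb16, also factors or co-regulators, were tested and did not pass. Ascl2, a transcription factor known as a Wnt target in intestinal stem cells, rose 5.07-fold, with 6.44 ± 0.172 FPKM with GCA and 1.27 ± 0.266 FPKM with PBS (log2 fold change 1.72, 95% interval 1.51 to 1.92, limma adjusted p = 0.000178). Id2, an inhibitor of basic helix-loop-helix factors, averaged 40.1 ± 2.99 FPKM with GCA and 28.1 ± 1.91 FPKM with PBS (0.50, limma adjusted p = 0.00291). Tle3, a co-repressor that binds TCF factors, averaged 10.9 ± 0.107 FPKM with GCA and 9.01 ± 0.203 FPKM with PBS (0.25, limma adjusted p = 0.00896). These 3 genes, and Nfatc1 as well, lay higher in every GCA library than in any PBS library. Nfatc1, a factor activated by calcium signals, averaged 7.32 ± 0.306 FPKM with GCA and 6.09 ± 0.165 FPKM with PBS (0.23, limma adjusted p = 0.0215), at up to 0.0661 when a library was left out, with GCA replicate 3 the exception among the 6. Tgif1, a repressor, fell to 7.999 ± 0.149 FPKM with GCA, against 9.92 ± 0.463 FPKM with PBS (−0.28, limma adjusted p = 0.00998). Myc and Ccnd1, often cited as targets of β-catenin, did not pass. Myc averaged 13.5 FPKM with GCA and 14.4 FPKM with PBS (limma adjusted p = 0.532), and Ccnd1 averaged 56.8 FPKM and 58.3 FPKM (0.772).

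**Figure D5:**
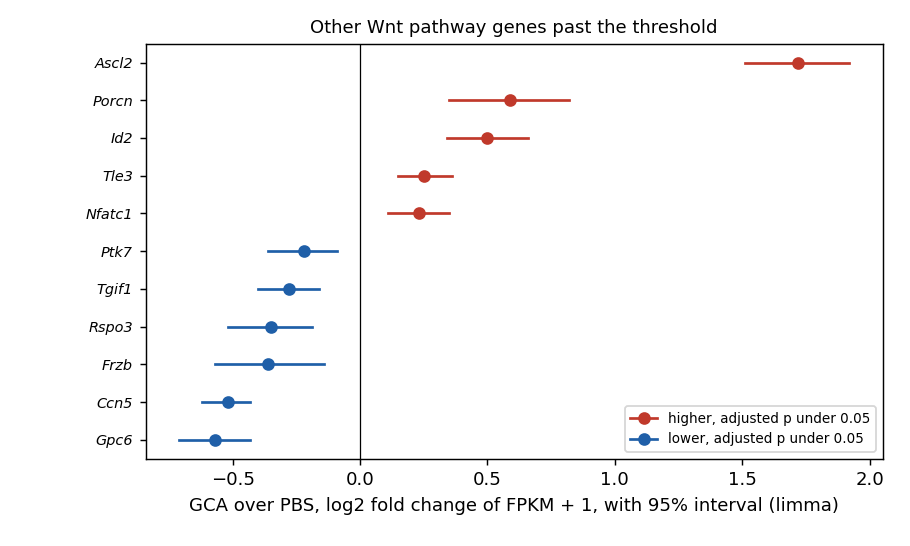
Log2 fold change of GCA over PBS on the log2(FPKM + 1) scale with its 95% interval from limma for the 11 further pathway genes past the threshold. Red points right of 0 are the 5 higher genes, Ascl2 at 1.72 the farthest, and blue points left of 0 the 6 lower genes, from −0.57 (Gpc6) to −0.22 (Ptk7).

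Markers of cell types and of cell division also moved between the groups. Of 16 tested stromal markers 4 were lower (Col1a2, Col3a1, Pdgfrb and Prrx1), 1 was higher (Vcam1) and 11 did not pass, with a summed level of 2608 to 2801 FPKM in the GCA libraries and 2956 to 3204 FPKM in the PBS libraries, without overlap. Of 20 macrophage markers 9 were higher, 1 was lower (Lyz2) and 10 did not pass. Of 7 tested osteoblast markers 4 were higher (Sp7, Ibsp, Pth1r and Smpd3) and 1 was lower (Spp1). They summed to 1749 to 2067 FPKM with GCA and 3750 to 4631 FPKM with PBS, and without Spp1, left out after the values were seen, to 263 to 345 FPKM and 154 to 209.6 FPKM. Of 5 tested pericyte and smooth muscle markers 2 were lower (Acta2 and Notch3) and 3 did not pass, with sums of 395 to 493 FPKM with GCA and 539 to 577 FPKM with PBS. Acta2 held most of these sums. Without Acta2, left out after the values were seen, the other 7 summed to 22.6 to 27.1 FPKM with GCA. With PBS they summed to 25.9 to 29.3 FPKM, so the groups overlapped. Higher with GCA were also Blnk and Cd22 of 3 tested B cell markers and Pf4 of 2 tested erythroid and megakaryocyte markers. So was Csf3r of 3 tested neutrophil markers. These lists held 8, 8 and 9 genes, and those not tested had no values or averaged under 1 FPKM. Without Pf4, left out after the values were seen, the other 5 of its list summed to 1.29 to 2.11 FPKM with GCA. With PBS they summed to 1.96 to 2.17 FPKM, so the groups overlapped. Without Blnk, the other 6 of its list summed to 8.26 to 9.09 FPKM with GCA and 6.47 to 7.01 FPKM with PBS. All 10 genes of cell division were higher, with a median log2 fold change of 0.65. No stromal, macrophage or division marker was at 0 in any library. Of 9 endothelial markers 1 was tested and did not pass, and the markers of T and NK cells summed to at most 0.408 FPKM in a library. The part of these shifts in the values of Ccn4, Wnt5a, Apcdd1 and Ryk was not tested.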

How the data were processed

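The authors deposited 1 value per Ensembl gene and library. The unit is not named in the files, and the values were identified as FPKM: with the exon lengths of GENCODE M21, 90.75% to 91.04% of the nonzero deposited values of a library were whole fragments within 0.02 fragment. Such whole numbers could be recovered in all 6 libraries for 37 of the 44 genes. The library total used for this was inferred from low values, as the most common total at which such a value stood for 1 fragment. Fragments recovered in this way summed to 18929244 to 19943239, above the inferred total in each library. All fragment counts given here rest on these totals. Per the submitters' processing notes, the builds were mm8 and mm9 and the aligner named was Bowtie 0.12.2. How fragments were counted, on which annotation, and how strand and shared reads were treated was not stated in these sources. The lengths match GENCODE M21 on GRCm38, whose coordinates are given here, attached by Ensembl identifier (27204 of 27263 genes matched).

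Groups were taken from the labels. GCA was compared with PBS by limma-trend with robust moderation (limma 3.58.1, R 4.3.3) on log2(FPKM + 1), two-sided, over the 11984 genes that averaged 1 FPKM or more. Benjamini-Hochberg adjustment ran over all of them, with a threshold of 0.05, and fold changes on this scale understate those of low genes. Intervals of fold changes are at 95%. An exact permutation test of 3 libraries against 3 cannot go below 0.1, so single genes were tested only in the fit across genes. Members with a mean of at least 5 FPKM or past the threshold are given in every library, and of the other pathway genes every one past the threshold is named. The members and gene lists were chosen with earlier results of these data known. Tables and plots used Python 3.11.15, pandas 2.3.3 and matplotlib 3.10.9. The alternatives were a replicate block, median centring, quantile normalization, other filters, pseudocounts and thresholds, limma without trend or robust moderation, limma-voom on whole fragments, and leaving out each library.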

Additional observations from a re-analysis of the deposited data

How the results depend on the processing

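Ccn4, Wnt5a, Porcn, Ccn5, Gpc6, Tle3, Id2, Tgif1 and Ascl2 stayed past the threshold under every alternative in which they were tested. The log2 fold change of Ccn4 ran from −0.78 to −0.66 and that of Wnt5a from −0.48 to −0.34. Of the 44 genes, 4 passed under quantile normalization, median centring, no filter, a filter of 0.1 FPKM, both other pseudocounts and limma without trend, 2 with a filter of 5 FPKM, where 12 were tested and Wnt5a and Apcdd1 were not, 2 at a threshold of 0.01, 6 at a threshold of 0.1 (Lrp6, higher, and Sfrp4, lower, joined), and 3 to 5 with a library left out. Limma-voom, in which 20 were tested and Ccn4 and Apcdd1 were not, called 3. Of the further pathway genes, 7 passed with a filter of 5 FPKM, 7 at 0.01, 13 at 0.1 and 7 to 10 with a library left out. Over all genes the count was 1075 with no filter, 837 at 0.01, 3161 at 0.1 and 1225 to 2078 with a library left out. The lowest of these were 1361 without GCA replicate 1, 1307 without PBS replicate 2 and 1225 without PBS replicate 3. No scaling moved the median of all genes by 0.1 log2 units.

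With the replicate number as a block, 5 of the 44 genes passed, 11 of the further genes and 2094 of all. Sfrp4 gained (adjusted p = 0.0268), as did Tnfrsf11b (0.0126), and Frzb missed the threshold (0.0625). Same-numbered libraries correlated at 0.082, 0.029 and 0.068 in their deviations, too little to pair them, although each library correlated best with its own number. Frzb, Ptk7 and Nfatc1 did not pass with no filter (0.0933, 0.0985 and 0.0625).

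Genes that changed sign lay near 0. Under quantile normalization the log2 fold change was −0.04 for Fzd6, 0.00 for Lgr4 and −0.01 for Tcf7l1, and under median centring −0.01 for Fzd6. With a library left out, values ran from −0.09 to 0.04 for Fzd1, −0.07 to 0.08 for Fzd6, −0.03 to 0.15 for Fzd8, −0.08 to 0.10 for Lgr4, −0.04 to 0.08 for Tcf7l1, −0.04 to 0.04 for Nkd2, −0.09 to 0.05 for Ccnd1 and −0.06 to 0.00 for Wls. The cause was not tested. With 3 libraries a group, the intervals of tested members that did not pass reached −0.69 and 0.38 log2 units, and Wnt ligands with under 100 fragments in a group are limited by depth.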
